A study of Setaria viridis with 13 samples.

Results

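Genes that stood out in the tip of leaf 3 were followed through 13 tissue and stage samples of Setaria viridis, a C4 grass known as green foxtail or green millet. The members were chosen by their measured values in the 4 parts of leaf 3. A gene belonged to the set when its level in the tip was at least 10 FPKM (a level per length of transcript and per sample total) and at least 4 times its level in every other part of the leaf (base, mid section, lower section). By this rule 103 of 35471 genes were members. They made up 2.01% of the 5121 genes that reached an FPKM of 10 in the tip, and those 5121 genes, members included, serve as the comparison throughout.

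All plants were wild type, accession A10, grown in hydroponic culture in short days. The leaf 3 tip was taken 10 days after germination together with the base above the ligule of leaf 3, a mid section above the ligule of leaf 2 and a lower section below it. The V3 bulk shoot and the vegetative meristem came from the same age. The other samples were the coleoptile at 3 days, the V5 bulk shoot, root and inflorescence meristem at 15 days, the R bulk shoot at 20 days, and the panicle before anthesis at 22 days and after it at 25 days. Each sample was 1 column of values with its 3 biological replicates already merged, so no difference could be set against replicate error, no p-value was computed, and sequencing depth was unknown.

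A grass leaf grows from a zone at its bottom, so that cells are older toward the tip, and the tip of the blade is its most mature end. In grasses the tip is also where ageing of the blade usually begins and where water is released through hydathodes, the pores at the ends of the veins. These are general facts of grass leaves and not results of these data. The files used here do not pair the gene IDs with names, so no function is given to any member and members are described by ID.

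Within leaf 3 the members spanned more than 2 orders of magnitude in level. Their tip FPKM ran from 10.9 to 3955 with a median of 30.1, and 38 of the 103 lay under 20. Of the members, 21 reached 100 and 3 reached 1000. The level in the tip was a median of 7.13 times that of the next leaf part with an upper quartile of 12.8. It was at least 10 times the next part in 35 members and under 5 times in 26. These ratios were fixed in part by the rule and describe the choice. At the 4-fold limit, Si023979m.g (4.00 times, with 13.5 FPKM in the tip and 3.38 in the base) and Si022096m.g (4.06 times) lay just inside. Si022641m.g (3.98 times, with 181 FPKM in the tip and 45.5 in the base) and Si034742m.g (3.93 times) lay just outside. At the FPKM limit, Si038106m.g (10.9) and Si031449m.g (11.1) were the lowest members, while Si021377m.g and Si018882m.g, both at 9.93, fell short. Of the members, 4 of low tip level had a very high panicle level, of which the tip level was a small share. They are treated with the panicles at the end, and 99 members remained without them.

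The base was most often the next highest of the other leaf parts. The rule did not name an order, but it limited the level in all 3 parts, while the 5121 genes had no such limit. Leaving out the base gave 163 members, the mid section 127 and the lower section 109. The rule may thus have shaped the shares below in part, which was not tested. The base was the next highest part in 57 members (55.3%), the mid section in 34 (33.0%) and the lower section in 11 (10.7%), with 1 member, Si019039m.g, listed at 0 in all 3. Among the 5121 genes the base alone was the highest of these 3 parts in 18.2%, the mid section in 42.2% and the lower section in 38.6%. A full order of base over mid section over lower section was found in 43 members (41.7%), against 11.1% of the 5121 genes. The lower section was the lowest of the 3 in 70 members (68.0%), against 25.8%. The median level was 11.5% of the tip level in the base, 9.10% in the mid and 4.91% in the lower section. Si022957m.g showed the order plainly, with 733 FPKM in the tip, 175 in the base, 78.9 in the mid and 15.7 in the lower section. Si005012m.g had a steeper one, with 1379, 15.3, 1.45 and 0.110 FPKM in the same parts.

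**Figure D1:**
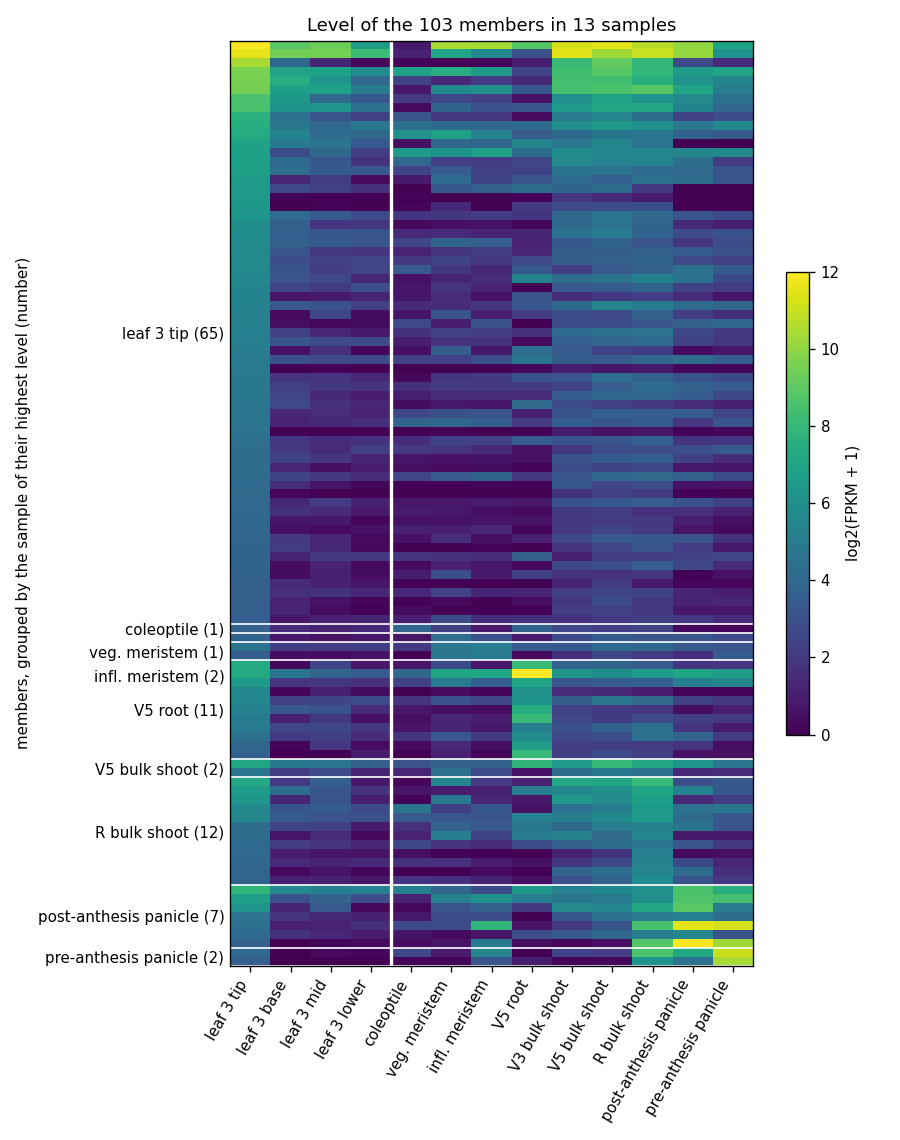
Level of each of the 103 members (rows) in the 13 samples (columns), as log2(FPKM + 1) on the colour scale. Rows are grouped by the sample in which the gene was highest, with the number of genes in brackets, and 65 genes were highest in the leaf 3 tip.

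The rule set the tip apart within leaf 3 only, and 38 members were higher in another sample. The tip was the highest of all 13 samples in 65 members (63.1%), against 831 of the 5121 genes (16.2%), a difference that the rule fixed in part because the tip already led within the leaf. A bulk shoot was the highest sample of 14 members (13.6%), against 13.1% of the 5121 genes. The root was highest for 11 (10.7%), against 15.4%, and a panicle for 9 (8.74%), against 12.6%. A meristem was highest for 3 (2.91%), against 17.5%, and the coleoptile for 1 (0.971%), against 2.77%. The share highest in a bulk shoot was thus near that of the 5121 genes, and the shares of the other organs were below theirs. These shares were also fixed in part by the rule, because the large share of the tip left less for every other sample. They do not show that members favoured or avoided an organ. Only 13 members had a tip level at least 4 times that of every other sample. At the other end, 7 members (6.80%) reached an FPKM of 5 in all 9 samples outside leaf 3, against 63.8% of the 5121 genes, and 10 members (9.71%) stayed under 5 in all 9, against 0.410%.

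**Figure D2:**
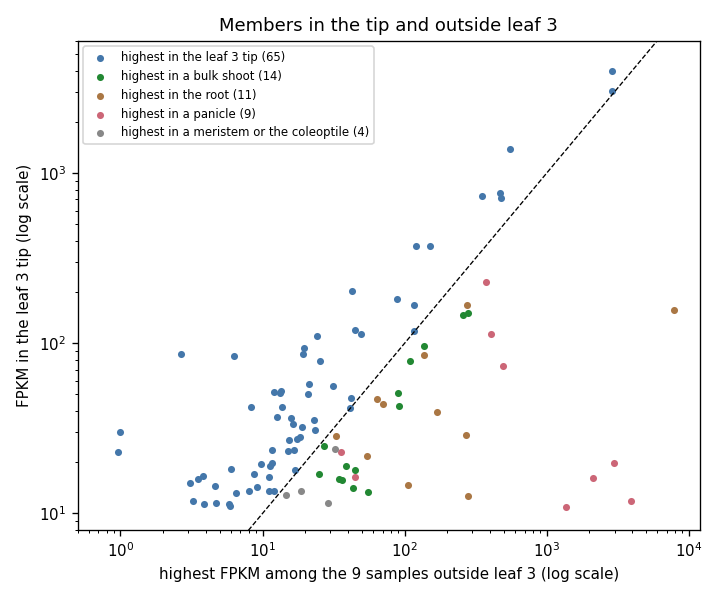
FPKM of the 103 members in the leaf 3 tip (vertical, log scale) against the highest FPKM among the 9 samples outside leaf 3 (horizontal, log scale), with each point a gene coloured by the sample of its highest level. The 65 genes above the dashed line of equal levels were highest in the tip, and the point farthest right is Si036352m.g, at 7857 FPKM in the root.

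Outside leaf 3 the members were nearest to their tip level in the bulk shoots. Their median log2(FPKM + 1) was 4.96 in the tip, 3.26 in the V3 bulk shoot, 3.59 in the V5 bulk shoot and 3.96 in the R bulk shoot. It was 1.96 in the vegetative and 1.82 in the inflorescence meristem, 1.97 in the root, 2.77 in the post-anthesis and 2.29 in the pre-anthesis panicle. The coleoptile had the lowest median of the 13 samples, 0.90. The 5121 genes ran only from 4.02 in the root to 5.11 in the R bulk shoot on the same scale. In the V3 bulk shoot, sampled at the same age, members had a median of 25.4% of their tip level, against 80.7% for the 5121 genes. The rule fixed this gap in part, because the share is taken of the tip level by which members were chosen. In samples of whole tissue, fewer cells that express a gene and less RNA in each of them cannot be told apart. Across the 9 samples outside leaf 3, pairs of members had a median Pearson correlation of log2(FPKM + 1) of 0.41 and pairs of the 5121 genes one of 0.12. These are correlations over the same 9 columns, which include the bulk shoots, and those may hold leaf tips. The choice of members by tip level may thus have set part of the gap, which was not tested. The correlations are given as a description.

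**Figure D3:**
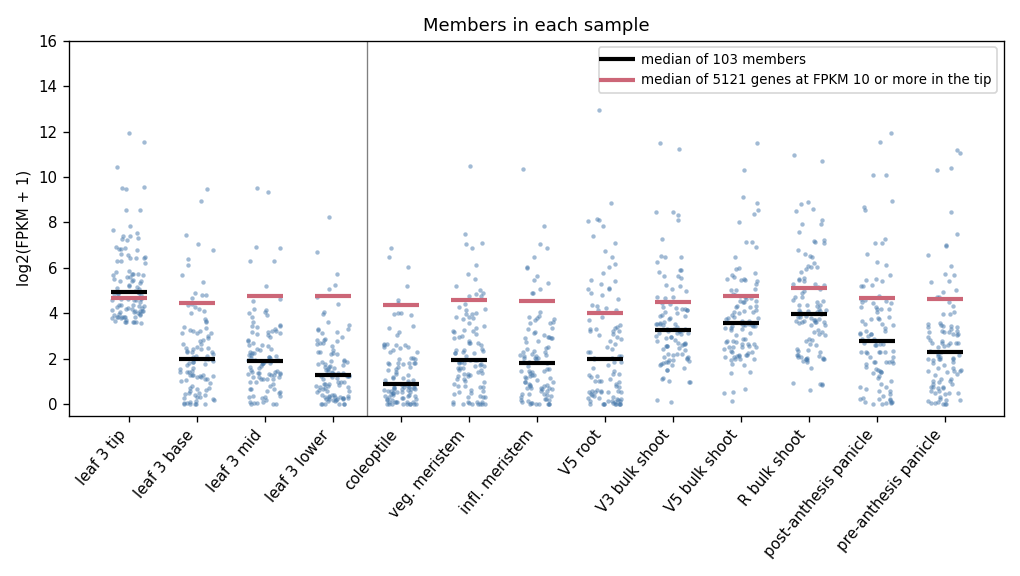
log2(FPKM + 1) of the 103 members (points) in each of the 13 samples, with the median of the members (black bar) and of the 5121 genes at FPKM 10 or more in the tip (red bar). In the tip the medians are 4.96 and 4.67, and in the coleoptile they are 0.90 and 4.37.

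The most abundant members were abundant in the bulk shoots as well. Si023761m.g had 3955 FPKM in the tip, against 490 in the base, 638 in the mid and 104 in the lower section. It was also at 2368 in the V3, 2875 in the V5 and 1686 in the R bulk shoot, at 1447 and 1322 in the vegetative and inflorescence meristems, and at 457 in the root. In the coleoptile it was at 0.705, against at least 104 in each of the 12 other samples. Si003564m.g had 3018 FPKM in the tip and 2895, 1260 and 2005 in the V3, V5 and R bulk shoots, with 1.11 in the coleoptile and 6.84 in the root. Its tip level was 1.04 times that of the V3 bulk shoot. In the rest of leaf 3 it was at 728 in the mid section, 698 in the base and 299 below, so it barely passed the rule at 4.15 times.

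Si005012m.g was the abundant member with the sharpest contrast. Beside its 1379 FPKM in the tip it had 271, 548 and 246 in the V3, V5 and R bulk shoots. In the other 6 samples it was at 0.0867 in the vegetative and 0.141 in the inflorescence meristem, 0.173 in the coleoptile, 1.04 in the root, and 5.28 and 1.75 in the post- and pre-anthesis panicles. It was thus at least 246 FPKM in the tip and the bulk shoots and at most 15.3 in the other 9 samples. Si022957m.g had a like pattern, at 349, 328 and 190 FPKM in the V3, V5 and R bulk shoots and under 4 in both meristems, the coleoptile and the root, but it was at 68.6 and 42.1 in the post- and pre-anthesis panicles. Si003602m.g (374 FPKM in the tip) and Si003230m.g (204) were 3.09 and 4.78 times higher in the tip than in the next sample outside leaf 3, which was the V5 bulk shoot (121 and 42.7). Si003468m.g (713) and Si003109m.g (371) were next highest in the R bulk shoot, at 473 and 150. Si018822m.g differed from these in its even spread, with 759 FPKM in the tip, 118 in the coleoptile and 176 in the vegetative meristem, and was low only in the root (4.39).

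A few members were close to absent outside the tip. Si020642m.g had 86.4 FPKM in the tip, where 94.0% of its summed FPKM over 13 samples lay. The next samples were the V3, V5 and R bulk shoots at 2.68, 1.71 and 0.840, and none of the other 9 exceeded 0.110. Si019039m.g (23.1 FPKM in the tip, 91.1% of its sum) was listed at 0 in the 3 other leaf parts, so no ratio is given. It was at 0.959, 0.454 and 0.548 in the V3, V5 and R bulk shoots. Si013989m.g (30.1 FPKM, 91.0%) had the same form, with 1.00, 0.613 and 0.778 in those shoots and at most 0.157 in the remaining samples. In all 3 genes the V3 bulk shoot, of the same age as the tip, was the highest sample outside leaf 3. Si014725m.g (84.6 FPKM, 78.9%) was at 5.54, 5.82 and 6.31 in the V3, V5 and R bulk shoots and 3.14 in the root. Si009057m.g (42.1 FPKM, 63.1%) had its next level in the root, 8.32. Si039992m.g (16.6 FPKM) was at 3.79 in the V5 bulk shoot, 0.165 in the base, and listed at 0 in both meristems, the coleoptile and the root. Si037740m.g (36.3 FPKM in the tip, 36.9%) was at most 0.366 in the rest of leaf 3 but was not close to absent elsewhere. It reached 5 FPKM in 7 of the 9 samples outside leaf 3, with 15.8 in the pre-anthesis panicle, and was listed at 0 in the root. Ratios to the next leaf part were 2451 for Si020642m.g, 1068 for Si014725m.g and 420 for Si013989m.g. They rest on leaf values near the rounding step of the table, which is 0.00696 FPKM close to 0, and say little beyond that the other parts were near 0.

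In comparisons between samples outside leaf 3, the calls higher and lower were made by size alone: a difference in log2(FPKM + 1) of 2 or more, with 5 FPKM or more in the larger value. None of these 6 comparisons entered the rule. All but that of the panicles include a bulk shoot, which may itself hold leaf blades with their tips. The choice of members by tip level may thus have set part of the shares called lower, and this was not tested. Several share the V3 or the V5 bulk shoot, so they are not independent of each other. In root, both meristems and coleoptile the median member was below its level in the bulk shoot of the same or a later age, under the deposited and both other scalings tried, and the share called lower was above that of the 5121 genes.

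**Figure D4:**
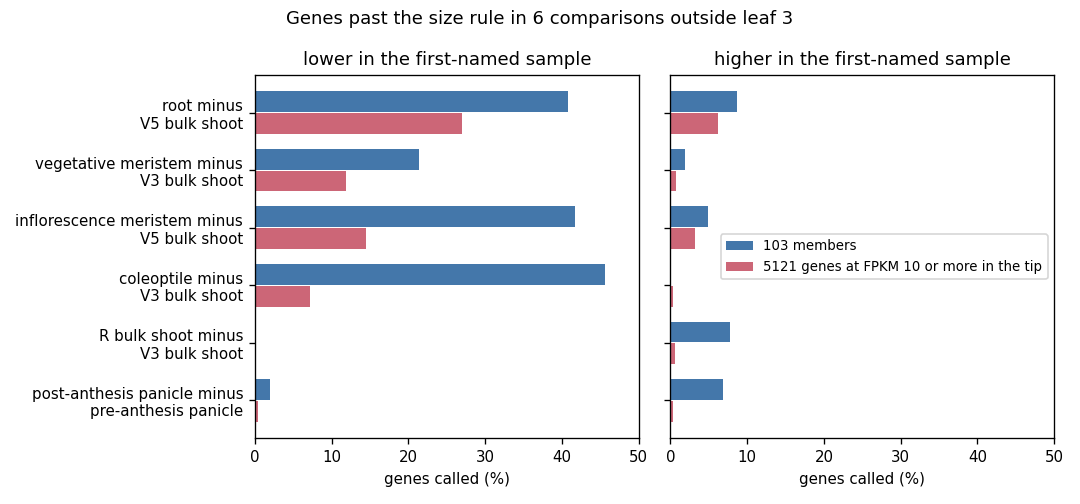
Percent of genes called lower (left) and higher (right) in the first-named sample of 6 comparisons outside leaf 3, for the 103 members (blue) and the 5121 genes at FPKM 10 or more in the tip (red). The widest gap is in the coleoptile, where 45.6% of members and 7.19% of the 5121 genes were called lower.

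The coleoptile, the sheath around the emerging shoot, gave the widest gap between members and the 5121 genes in the share called lower. Against the V3 bulk shoot, 47 members (45.6%) were called lower in the coleoptile, against 7.19% of the 5121 genes, and 0 were called higher, against 0.312%. The median log2 difference, coleoptile minus V3 bulk shoot, was -1.83 for members and -0.01 for the 5121 genes, and 91 of 103 members lay below 0. Only 19 members (18.4%) reached an FPKM of 5 in the coleoptile, against 87.3% of the 5121 genes. It alone was the lowest of the 9 samples outside leaf 3 for 40 members (38.8%), against 12.9%. Si023761m.g and Si003564m.g, described above, had the largest differences, -10.44 and -10.42. In the other direction, Si031636m.g was the 1 member highest in the coleoptile, at 14.7 FPKM, close to its 13.2 in the root and 12.8 in the tip.

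More members were called lower than higher in the root. Against the V5 bulk shoot, 42 members (40.8%) were called lower in the root, against 27.0% of the 5121 genes, and 9 (8.74%) were called higher, against 6.15%. The median difference, root minus V5 bulk shoot, was -1.90 for members and -0.58 for the 5121 genes, and 78 members lay below 0. Si005012m.g (1.04 FPKM in the root, 548 in the shoot; difference -8.07) and Si003564m.g (6.84 and 1260; -7.33) had the largest differences downward.

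In all, 15 members (14.6%) had more transcript in the root than in the tip, against 39.4% of the 5121 genes. The root was the highest sample of 11 (10.7%), against 15.4% of the 5121 genes. Both shares were fixed in part by the rule, which chose members by their tip level. Among these 11, Si036352m.g was by far the strongest, at 7857 FPKM in the root, against 157 in the tip. It lay between 10.1 and 137 in the other 11 samples, of which the post-anthesis panicle was the highest and the lower leaf section the lowest. Root minus V5 bulk shoot was 6.95 for this gene and 5.95 for Si037315m.g, which had 270 FPKM in the root and 3.38 in the V5 bulk shoot. Si018682m.g had 279 FPKM in the root and 12.7 in the tip, and at most 5.23 elsewhere. Si036858m.g was shared by root and tip alone, at 64.3 and 46.8 FPKM, with no other sample above 1.83. Among the 11 genes the root level was a median of 2.49 times the tip level, with a range from 1.15 to 50.2.

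Both meristems were below the bulk shoots for most members. Of the members, 22 (21.4%) were called lower in the vegetative meristem than in the V3 bulk shoot, against 11.9% of the 5121 genes, and 2 (1.94%) higher, against 0.801%. The share called lower was 34.0% with median-ratio scaling, against 16.5% of the 5121 genes, and 12.5% among members at 8 times or more, near the 11.9% as deposited. In the inflorescence meristem 43 (41.7%) were called lower than in the V5 bulk shoot, against 14.5%, and 5 (4.85%) higher, against 3.26%. Without the 4 members that reached 1000 FPKM in the pre-anthesis panicle, 1.01% were called higher there. Median differences, meristem minus bulk shoot, were -1.22 at V3 and -1.73 at V5 for members, against 0.28 and -0.19 for the 5121 genes. Si005012m.g had the largest differences downward, -7.97 at V3 and -8.91 at V5, followed by Si022957m.g with -7.13 and -6.21. The 2 members called higher in the vegetative meristem were Si008591m.g (26.1 FPKM in the meristem, 1.99 in the V3 bulk shoot; difference 3.18) and Si038318m.g (116 and 16.6; 2.73). Si008591m.g was highest of all in the inflorescence meristem, at 28.9 FPKM, against 11.5 in the tip and at most 0.495 in the rest of leaf 3. Si023903m.g was also highest there (32.4, with 23.9 in the tip), and Si001286m.g was highest in the vegetative meristem (18.7, with 13.5 in the tip).

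Along the bulk shoots from V3 to V5 to R, the direction of the median depended on scaling. As deposited, the median log2(FPKM + 1) was higher at each stage, in members (3.26, 3.59 and 3.96) and in the 5121 genes (4.48, 4.78 and 5.11). Higher values at both steps were found in 40 members (38.8%), against 49.4% of the 5121 genes. Against the V3 bulk shoot, 8 members (7.77%) were called higher in the R bulk shoot, against 0.664% of the 5121 genes, and 0 were called lower, against 0.195%. The median difference, R minus V3, was 0.41 for members and 0.52 for the 5121 genes, and 31 members lay below 0. With median-ratio scaling it was -0.29 for members and -0.22 for the 5121 genes, so neither direction is given to the set as a whole. Si022758m.g (442 FPKM at R, 0.141 at V3; difference 8.60) and Si037696m.g (361 and 2.92; 6.53) led those called higher, and both are described with the panicles below. Without the same 4 panicle members, 4 members (4.04%) were called higher at R. The R bulk shoot was the highest sample of 12 members (11.7%), near the 10.5% of the 5121 genes, a share that the rule fixed in part. Si015332m.g was at 277 FPKM there, at 151 in the tip and likewise at V3, and at 138 at V5, with 11.4 at most in the rest of leaf 3. Si037921m.g was at 96.0 FPKM in the tip and at 137 at R. The V5 bulk shoot was highest for Si026803m.g (259 FPKM, with 227 in the root and 147 in the tip) and Si014690m.g (27.1, with 24.8 in the tip).

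Between the panicle stages, few members were called, and more of them higher after anthesis than lower. Of the members, 7 (6.80%) were called higher in the post-anthesis panicle, against 0.410% of the 5121 genes, and 2 (1.94%) lower, against 0.430%. Those 7 were among 21 genes called higher of all 5121. The median difference, post minus pre, was 0.39 for members and 0.04 for the 5121 genes, and 72 members lay above 0 and 27 below. Si003564m.g had 1081 FPKM after and 66.6 before anthesis, and Si003555m.g had 494 after and 29.9 before, each a difference of 4.00. For Si003555m.g the post-anthesis panicle was the highest sample, and its tip level was 73.5, against 140 at R. Si023792m.g was likewise at 376 after and 178 before anthesis, with 228 in the tip and 88.9 in the root.

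Among the 9 members highest in a panicle, 4 reached at least 1000 FPKM before anthesis. Si037696m.g had 19.8 FPKM in the tip, with 2956 after and 2319 before anthesis. Si037230m.g had 16.1 in the tip, with 155 after and 2105 before. Si022758m.g had 11.9 in the tip, with 3901 after and 1260 before. The fourth, Si038106m.g, had 10.9 in the tip, with 22.9 after and 1360 before. The 2 members called lower after anthesis were Si038106m.g (difference -5.83) and Si037230m.g (-3.75), and none remained without these 4. All 4 were at most 2.03 FPKM in the base, mid and lower sections, and their R bulk shoot levels were 361, 382, 442 and 72.5 in the order given. Their tip levels were 0.855%, 0.767%, 0.945% and 0.800% of the pre-anthesis panicle level. The rule fixed the likeness of these shares in part, because it asked for at least 10 FPKM in the tip. Genes of a like panicle level with a smaller share could not be members. The post-anthesis levels of the 4 members differed by more than 100 times. In every other member with a pre-anthesis panicle level above 0 the tip level was at least 32.1% of it. None of those members exceeded the 354 FPKM of Si003662m.g in the pre-anthesis panicle. With the tip minimum of 10 FPKM, shares as low as those of the 4 could not occur among them.

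The low shares of these 4 members were then looked for in other genes. All genes with at least 100 FPKM in the pre-anthesis panicle and under 1 in 6 other samples were listed. These 6 were the base, mid section, lower section, coleoptile, V3 bulk shoot and V5 bulk shoot. The choice was made after the values had been seen. There were 10 such genes, 2 of them members (Si022758m.g and Si038106m.g). The choice itself held the 6 samples under 1 FPKM, so they serve as no contrast to the tip, which it left free. The tip level was 0.244% to 1.63% of the pre-anthesis panicle level with a median of 0.955%. Si038090m.g, not a member, had 4.82 FPKM in the tip and 1977 in the pre-anthesis panicle. Si021639m.g, not a member, had 9.93 in the tip and 1135 in the pre-anthesis panicle. For 49 genes chosen in the same way by the root, the tip level was a median of 0.0550% of the root level and at most 0.558%. No member with a root level above 0 had a tip level under 1.99% of it. The tip minimum of 10 FPKM fixed this in part, so it does not set members apart from the 49 genes. The part that panicle RNA or reads had in the tip values of the 4 members was not tested.

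**Figure D5:**
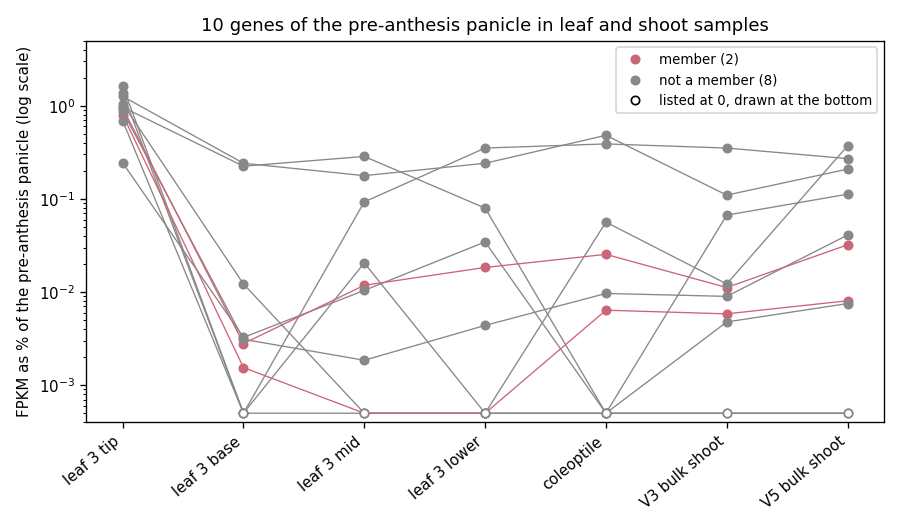
FPKM of 10 genes abundant in the pre-anthesis panicle, as percent of their level there (log scale), in the leaf 3 tip and in the 6 samples used to pick them. Red points are the 2 members, grey points are other genes, and open points at the bottom are values listed at 0. In the tip the genes lie between 0.244% and 1.63%, while the 6 other samples were held under 1 FPKM by the choice of genes.

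A deposited offset of the transcription start site was listed for 47 of the 103 members (45.6%), against 51.8% of the 5121 genes. The offset is a signed number of nucleotides whose sign convention is not given in the sources used here. Members had a median offset of -9 with quartiles of -17.5 and 4.5. The 2652 of the 5121 genes with an offset had a median of -2 with quartiles of -13 and 36. All 4900 genes with an offset had a median of -7 with quartiles of -20 and 24. The offset was negative in 33 of the 47 members (70.2%), against 52.0% of those 2652 genes and 61.1% of all genes with an offset. It was within 20 nucleotides of 0 in 26 (55.3%), against 48.8% and 48.5% of the same genes. The lowest was -196 in Si023979m.g and the highest was 127 in Si036679m.g. Si005012m.g had -45, and Si020642m.g had 9.

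Most members with several transcripts passed the rule by each of them. Of the members, 86 had 1 annotated transcript and 17 had more, 42 transcripts in all. Transcripts of 1 gene often had nearly equal values, such as 23.6 FPKM in the tip for each transcript of Si016099m.g. They are thus not separate support. In 16 of the 17, every transcript was at least 4 times higher in the tip than in each other leaf part. The exception was Si023143m.g, whose leading transcript had 44.3 FPKM in the tip and 5.45 in the lower section, while the other had 8.13 in the tip and 8.32 in the lower section.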

How the data were processed

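RNA from 13 samples of Setaria viridis was measured by poly(A) sequencing with paired reads of 100 nt. The submitters' processing notes name STAR and DESeq2 without saying what each did. Versions, build, annotation and the way of merging were not stated. The deposited table holds log2 values per transcript, rounded by the authors to 2 decimals, with replicates merged. The base and the added 1, which give FPKM as 2 to the power of the value, less 1, were inferred from the values. The deposited start site offset is a score in nt per gene. Of 40599 transcripts, the one with the highest mean FPKM stood for its gene. None (0) of the gene or transcript IDs matched the 34587 genes of the reference table, so gene lists and marker checks could not be made and no sequence is shown.

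Depth is unknown, and only sizes are compared. The members, comparisons and alternatives were chosen with earlier results of these data known. Genes named are the members highest in the tip (10), with the largest ratio to the next leaf part (10), highest in each other sample (2 each), most different per comparison (2 each way), nearest the limits, and most concentrated in the tip (5). Others were named after their values were seen. The rules were tested on simulated data. Median differences were recomputed under 2 other scalings after seeing the data. Python 3.11.15, pandas 2.3.3, numpy 2.4.6 and matplotlib 3.10.9 were used.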

Additional observations from a re-analysis of the deposited data

How the results depend on the processing

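Of 108 recomputed values, 89 were within 1.5 times the reported one and 19 were not. The 103 members became 288 with a tip minimum of 1 FPKM, 65 with 20 FPKM, 178 at 3 times, 48 at 8 times, and 163 when the base was left out of the rule. Median-ratio scaling gave 112, of which 88 were among the 103. The 65 members highest in the tip became 143 (tip minimum of 1 FPKM), 119 (3 times) and 26 (8 times). The factors of median-ratio scaling shift a difference by -0.57 (log2) for vegetative meristem minus V3 bulk shoot, -0.34 for inflorescence meristem minus V5, 0.17 for root, -0.12 for coleoptile and -0.78 for R minus V3, less for low genes because 1 is added. The members' median differences became -1.63, -2.01, -1.84, -1.99 and -0.29 in that order, against -1.22, -1.73, -1.90, -1.83 and 0.41 as deposited. With this scaling 34.0% of members were called lower in the vegetative meristem and 0.971% lower at R. A pseudocount of 0.1 also gave 0.971% lower at R. Among the 48 members at 8 times only, 12.5% were lower in the vegetative meristem, 10.4% higher in the inflorescence meristem, 14.6% higher at R, and 4.17% higher and 4.17% lower after anthesis. These 48 include the 4 members at 1000 FPKM in the pre-anthesis panicle, whose tip level was at least 9.76 times the next leaf part. With these 4 left out of the 103, an alternative chosen after seeing the data, 1.01% were higher in the inflorescence meristem, 4.04% higher at R and 0% lower after anthesis. No paired analysis was possible because each sample had 1 merged column, and for the same reason no replicate could be left out.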
